A study of Mus musculus with 5 samples.

Results

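The genes described here belong to the integrated stress response and to the amino acid supply that it controls. They are 32 mouse genes chosen by name and function, with earlier results of these data known. The set holds 7 transcription factors, 6 amino acid transporters and 9 stress effectors. It also holds 5 enzymes of serine and mitochondrial one-carbon synthesis and 5 other enzymes of amino acid metabolism. Each gene was represented by its brightest probe set among those listed with exactly 1 gene symbol, judged by the mean over the 5 arrays. This gave values for 31 of the 32 genes, out of 18193 genes with such a probe set in all; Pycr1, a proline synthesis enzyme, had none and is not analysed here. All 31 were among the 13619 genes kept by the filter on low values, and all 31 lay above the filter level on each of the 5 arrays. The filter level is the 40th percentile of an array's probe sets, between 3.03 and 3.12 on the log2 scale.

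The arrays compare mouse embryonic stem cells with and without depletion of Tet1, the dioxygenase that oxidizes 5-methylcytosine in DNA. J1 embryonic stem cells, cultured on mouse embryonic fibroblast feeders, received a control siRNA or a Tet1 siRNA and were collected 4 days later, 1 array each. E14 embryonic stem cells, cultured without feeders, were infected with lentivirus for a scrambled hairpin or for either of the Tet1 hairpins shRNA3387 and shRNA2863, 1 array each, and were collected once 4 days of puromycin selection had passed. The labels give no other genetic change in either line and no clone or culture number. Both hairpins are compared with the same scramble array, and line, feeders and means of depletion differ together. No group has a replicate, so a difference between single arrays carries no error and gets no p-value; differences are log2 of the Tet1-depleted array minus the control array of the same line, and a difference of at least 1.5-fold is used to count genes.

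In the integrated stress response, kinases that sense amino acid shortage, unfolded protein in the endoplasmic reticulum, double-stranded RNA or lack of heme phosphorylate the translation initiation factor eIF2. General protein synthesis then slows while translation of Atf4 mRNA goes up, and the Atf4 protein, paired with a C/EBP family protein, activates genes for amino acid synthesis, amino acid import, tRNA charging and recovery from stress. Because Atf4 is set largely at translation, its mRNA on an array is not a measure of its protein. Rapidly dividing stem cells draw heavily on serine, glycine and one-carbon units for nucleotides and methyl groups.

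The short DNA element bound by Atf4 with a C/EBP partner links many of these genes, and the promoter stretches that hold it are shown for that reason; a match describes the sequence and does not show binding. RefSeq promoters on build GRCm38.p6, each 300 bases from 250 before to 50 after a start, were matched by symbol for 28 of the 32 genes. The element was searched as TGATGNAA on both strands. It was present in 9 of the 28 genes (32.1%) and in 4.51% of all 27025 genes with a promoter in the table. The narrower form TGATGCAA, whose matches are all matches of TGATGNAA too, was present in 7 of the 28 and in 1.03% of all genes. The ER stress response element, a motif of other stress factors searched by its consensus on both strands, was in 0 of the 28 and in 0.137% of all genes. Windows of 30 bases on the strand of the gene follow, with the element in capitals; TTNCATCA is its reverse complement, and positions count from the start site.
Chac1: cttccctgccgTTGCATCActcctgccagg
Nupr1: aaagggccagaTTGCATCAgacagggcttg
Asns: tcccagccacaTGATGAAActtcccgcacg
Trib3: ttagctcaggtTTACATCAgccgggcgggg
Atf3: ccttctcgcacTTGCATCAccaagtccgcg
Slc7a11: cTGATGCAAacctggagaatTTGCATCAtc
Herpud1: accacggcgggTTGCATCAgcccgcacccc
Vldlr: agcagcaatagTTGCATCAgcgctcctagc

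The Chac1 window is chr2:119351038-119351067 on the plus strand, with its element starting at -193. The Nupr1 window is chr7:126625562-126625591 (minus, -110), the Asns window chr6:7693214-7693243 (minus, -23) and the Trib3 window chr2:152344028-152344057 (minus), where the element starts 15 bases into the transcript. The Atf3 window is chr1:191183425-191183454 (minus, -110). The Slc7a11 window is chr3:50443651-50443680 (minus) and holds 2 elements facing each other, at -66 and -47. The Herpud1 window is chr8:94386306-94386335 (plus, -112) and the Vldlr window chr19:27216809-27216838 (plus, -200). Pycr1 is the remaining gene with the element. On their brightest probe sets these genes did not share 1 pattern in the arrays: Chac1, Nupr1, Asns and Trib3 were lower with Tet1 siRNA in J1 cells, Atf3 and Herpud1 were slightly higher, and Vldlr and Slc7a11 were near their control.

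Tet1 itself read 10.85 and 8.31 in J1 cells with control and Tet1 siRNA, and 10.95, 9.24 and 10.06 in E14 cells with the scramble, shRNA3387 and shRNA2863. Its differences were therefore -2.54, -1.71 and -0.89. All 12 stem cell markers were above the filter level on all 5 arrays; their summed linear level was 30900 in J1 control cells, 23933 with Tet1 siRNA, and between 30975 and 33284 in E14. The fibroblast feeder markers, 19 with a probe set, summed to 4543 in J1 control cells, to 5709 in J1 cells with Tet1 siRNA and to between 2747 and 3615 in E14, with 14 to 16 of 19 above the filter level. The fibroblast genes Pdgfra, Dcn and Postn were under that level on all 5 arrays. A value above it does not by itself show expression: Pdgfrb stayed between 3.59 and 3.64 on all 5 arrays, with and without feeders. Of the 16 feeder markers kept, 10 were higher in E14 scramble than in J1 control cells and 6 lower, with a median difference of 0.04. At least 1.5-fold lower in E14 were 4, against 13.4% of all genes, and 1 was higher (Twist1), against 9.69%. At 2-fold 2 were lower, against 4.84%, and 0 higher, against 3.52%. The 2 were Col1a2 (6.24 in J1 control, 3.62 in E14 scramble) and Sparc (10.95 and 9.32). The signs over the list were thus mixed, while most of the larger differences were lower in E14.

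In J1 cells with Tet1 siRNA, most genes of amino acid supply were lower than in control cells, and the stress factor Ddit3 was higher. Of the 31 genes, 12 (38.7%) were at least 1.5-fold lower, against 6.09% of all 13619 genes, and 5 were at least 2-fold lower, against 1.1%. Both counts include Sesn2, whose other probe set was higher by 0.71, and the 2-fold count includes Slc7a5, which just reached the line. At least 1.5-fold higher was 1 gene, Ddit3, against 2.91% of all genes, and 0 were 2-fold higher, against 0.47%. Among the 7108 genes with a mean log2 value over 6, the shares past 1.5-fold were 7.02% lower and 2.29% higher. The median difference was -0.41, beside -0.01 over all kept genes and -0.09 over those brighter genes. By group the medians were -0.66 for serine and one-carbon enzymes, -0.69 for the other amino acid enzymes, -0.36 for transporters, -0.30 for stress effectors and 0.01 for transcription factors. In bulk RNA, fewer cells of a type and less RNA per cell cannot be told apart. All 12 stem cell markers were also lower on this pair of arrays, with 5 past 1.5-fold and a median of -0.54. The summed feeder marker level was higher, but bright genes weigh most in a sum. Sparc (10.95 and 11.38) and Vim (9.94 and 10.47) were such genes, both higher. Of the 16 feeder markers kept, 9 were higher and 7 lower, with a median difference of 0.01. Of the 19 with a probe set, 16 were above the filter level in control cells and 14 with Tet1 siRNA. The part of either marker list in the result was not tested.

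**Figure D1:**
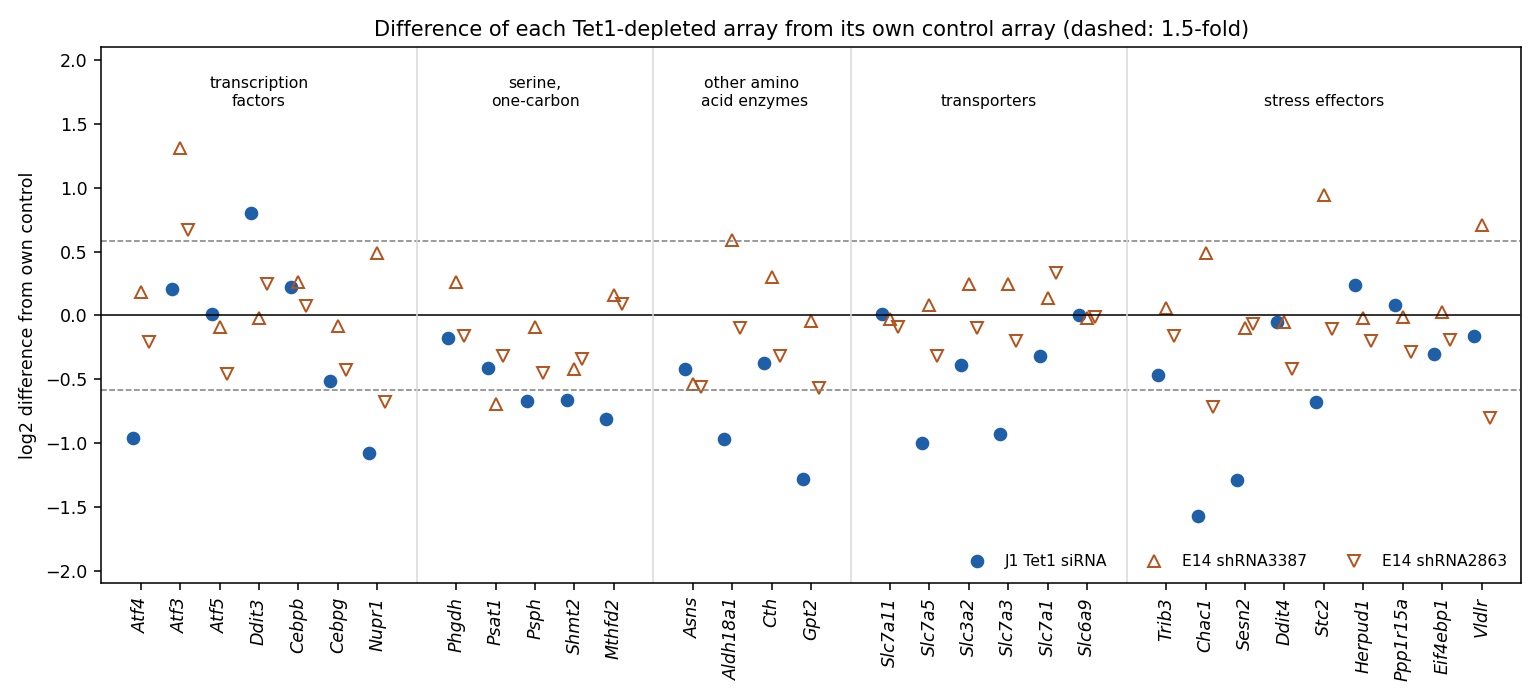
Log2 difference of each Tet1-depleted array from its own control array (vertical axis) for the 31 genes by functional group (horizontal axis), 1 array per group, with no error bars for that reason. Blue circles are J1 Tet1 siRNA, and upward and downward open triangles are E14 shRNA3387 and shRNA2863; 12 blue circles lie below the lower dashed 1.5-fold line and 1, Ddit3, above the upper one.

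Among the factors, Atf4 stood at high signal throughout. It read 9.85 and 8.89 in J1 control and Tet1 siRNA cells, and 9.59, 9.77 and 9.38 in E14 with the scramble, shRNA3387 and shRNA2863. The J1 Tet1 siRNA array was the lowest of the 5, 1.95-fold under its control, and both hairpin arrays lay within 0.21 of theirs, on opposite sides. Its second probe set gave differences of -0.95, 0.33 and -0.21.

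Ddit3, which encodes CHOP, a factor of prolonged stress, differed in the opposite direction to Atf4 in J1. It read 5.71 and 6.51 in J1 and 5.43, 5.41 and 5.68 in E14 in the same order. The J1 Tet1 siRNA array was the highest of the 5, 1.74-fold above its control, and the hairpin differences were -0.02 and 0.25. Atf3, an immediate stress factor, read 5.43 and 5.64 in J1 and 3.57, 4.88 and 4.24 in E14. Both hairpin arrays were above the scramble array, by 1.31 and 0.67, and the scramble array was the lowest of the 5. Both differences rest on that 1 dim scramble value, near the array's filter level of 3.12. Atf3 rests on 1 probe set.

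Nupr1, a small chromatin-associated stress protein, read 6.01 and 4.93 in J1, 2.11-fold lower with Tet1 siRNA, and 5.22, 5.71 and 4.54 in E14, so that the hairpin arrays lay on either side of the scramble array. Its second probe set gave -0.92, 0.36 and -0.01. The C/EBP family members did not show 1 direction. Cebpg, a dimer partner of Atf4, read 6.74 and 6.23 in J1 and 5.79, 5.71 and 5.36 in E14, but its other probe set above the filter differed by 0.60 in J1, against -0.51 for the brightest. With shRNA3387 that probe set of Cebpg also differed by 0.60, against -0.08 for the brightest. Cebpb differed by 0.22 in J1 and by 0.26 and 0.07 in E14. Its other, dimmer probe set gave 0.53, 0.45 and -0.22, so the sign with shRNA2863 differed between them. Atf5, a factor translated under stress like Atf4, differed by 0.01, -0.09 and -0.46.

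**Figure D2:**
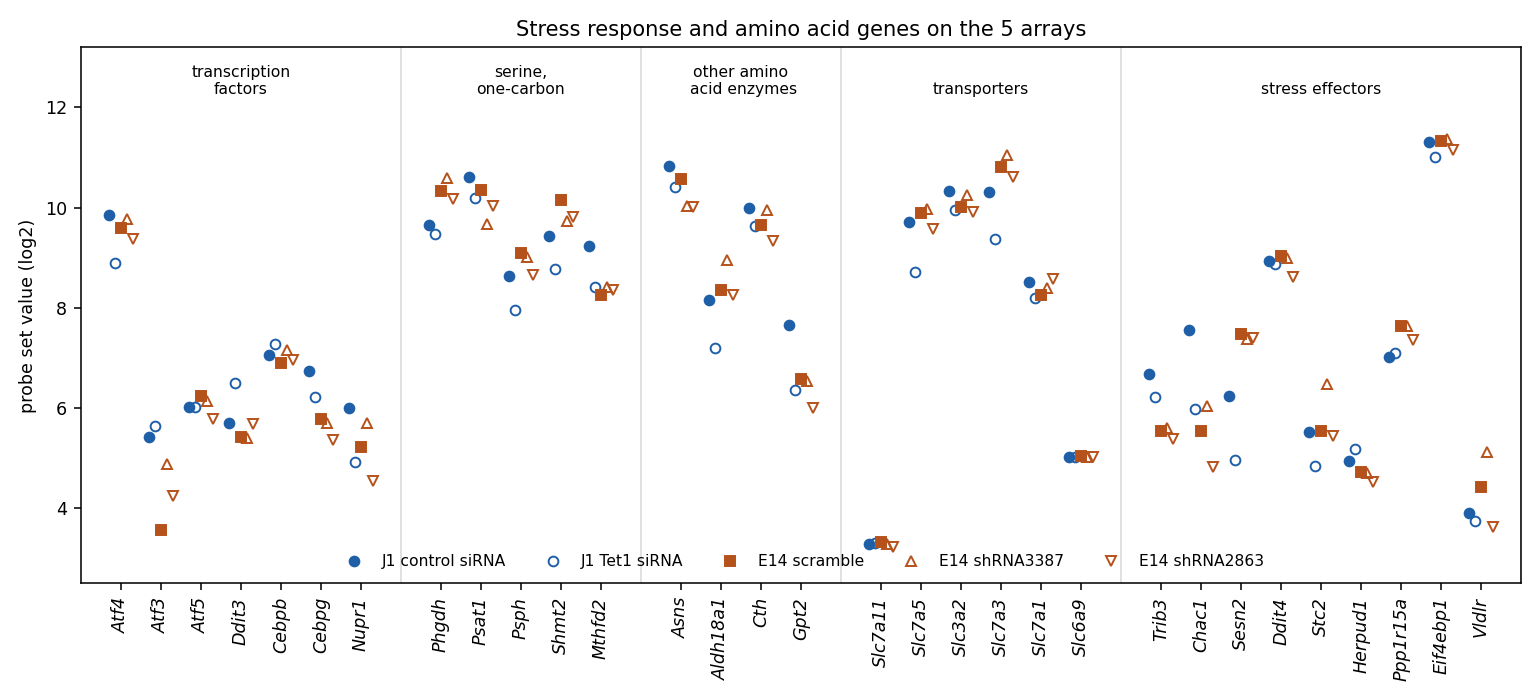
Log2 probe set value (vertical axis) of the 31 genes by functional group (horizontal axis) on each of the 5 arrays: filled blue circles J1 control siRNA, open blue circles J1 Tet1 siRNA, filled squares E14 scramble, open triangles the E14 hairpins. Levels of different genes come from different probe sets and are not comparable; within a gene, Atf4 is lowest with J1 Tet1 siRNA at 8.89, and Slc6a9 stays between 5.02 and 5.04.

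The serine pathway runs from glycolysis through Phgdh, Psat1 and Psph to serine, which Shmt2 and Mthfd2 turn into glycine and one-carbon units in mitochondria. All 5 genes were lower with Tet1 siRNA in J1, as were 6865 of all 13619 genes. By at least 1.5-fold 3 of the 5 were lower, against 6.09% of all genes. Mthfd2 read 9.23 and 8.42 in J1 and 8.26, 8.42 and 8.35 in E14. Its J1 control array was the highest of the 5, and the J1 Tet1 siRNA array equalled the shRNA3387 array. Its other probe set gave differences of -0.79, 0.29 and -0.35, so the sign with shRNA2863 differed between the probe sets. Shmt2 read 9.43 and 8.77 in J1 and 10.16, 9.74 and 9.82 in E14, lower than control on each depleted array (-0.66, -0.42 and -0.34). All 3 further probe sets of Shmt2 were lower in J1, by -0.70, -0.41 and -0.23; in shRNA2863 the second brightest differed by 0.15.

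Psph read 8.63 and 7.96 in J1 and 9.10, 9.01 and 8.65 in E14. Psat1 read 10.61 and 10.20 in J1 and 10.36, 9.67 and 10.04 in E14, and was the serine enzyme with the largest difference with shRNA3387, 1.61-fold lower. Both genes were lower than control on each depleted array, on 1 probe set for Psph and on 2 for Psat1. Phgdh, the first enzyme of the pathway, differed by -0.18, 0.26 and -0.16, and its 3 other probe sets had the same signs.

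Of the other amino acid enzymes, Gpt2 and Aldh18a1 were the lower ones in J1. Gpt2, a mitochondrial alanine aminotransferase, read 7.65 and 6.37 in J1, 2.43-fold lower with Tet1 siRNA, and 6.58, 6.54 and 6.01 in E14. Its 3 other probe sets differed by -1.53, -1.44 and -1.23 in J1. Aldh18a1, which starts proline synthesis from glutamate, read 8.16 and 7.19 in J1, 1.96-fold lower, and 8.36, 8.95 and 8.26 in E14, 1.51-fold higher with shRNA3387. Its 4 other probe sets were lower in J1 (-0.33 to -1.24) and higher with shRNA3387 (0.29 to 0.47).

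Asns, asparagine synthetase and a classical Atf4 target, was lower by similar amounts on each of the 3 depleted arrays. It read 10.84 and 10.42 in J1 and 10.57, 10.03 and 10.01 in E14, so each depleted array was below its control, by -0.42, -0.54 and -0.56. A second probe set gave -0.28, -0.65 and -0.63. None of the differences of the brightest probe set reached 1.5-fold. Cth, which makes cysteine from cystathionine, differed by -0.37, 0.30 and -0.32.

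Of the 6 transporter genes, 2 were at least 1.5-fold lower in J1 (Slc7a5 and Slc7a3), against 6.09% of all genes. With shRNA3387, 4 were above the scramble, by at most 0.25, as were 5682 of all 13619 genes. Slc7a5 carries large neutral amino acids such as leucine; it read 9.71 and 8.71 in J1 and 9.89, 9.97 and 9.57 in E14. Its J1 Tet1 siRNA array was the lowest of the 5 and lay at the 2-fold line under its control, just reaching it. Its partner chain Slc3a2 read 10.34 and 9.95 in J1, a smaller difference of -0.39, and 10.01, 10.26 and 9.91 in E14. Slc7a3, a carrier of arginine and lysine, read 10.31 and 9.38 in J1, 1.91-fold lower, and 10.81, 11.06 and 10.61 in E14. For these 3 genes shRNA3387 was above the scramble array and shRNA2863 below it, by at most 0.32.

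The related arginine carrier Slc7a1 differed by -0.32 in J1 and by 0.14 and 0.33 in E14. Its other probe set above the filter gave -0.71, -0.06 and 0.11. Slc7a11, the cystine importer, read between 3.23 and 3.32 on the 5 arrays, just above the filter level, and the glycine carrier Slc6a9 between 5.02 and 5.04. Nearly constant values of this kind leave a difference undetectable on these arrays.

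Among the effectors, Chac1 differed most in J1. Chac1 degrades glutathione and is a late target of the Atf4 and CHOP branch; it read 7.56 and 5.99 in J1, 2.97-fold lower with Tet1 siRNA, and 5.55, 6.04 and 4.83 in E14. Its J1 control value was the highest of the 5, and the hairpin arrays lay on either side of the scramble array, at 0.49 and -0.72. It rests on 1 probe set. Trib3, a pseudokinase that restrains the response, read 6.69 and 6.22 in J1 and 5.55, 5.61 and 5.39 in E14. Its other probe set differed by -1.12 in J1, against -0.47 for the brightest.

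Sesn2, a leucine sensor that restrains mTORC1 signalling, gave opposite answers in J1 on its probe sets. The brightest read 6.25 and 4.96 in J1, 2.45-fold lower, and 7.47, 7.37 and 7.40 in E14. The other read 7.40 and 8.11 in J1, higher by 0.71, and 6.30, 5.55 and 6.02 in E14. The probe sets also disagreed between the control arrays, where E14 scramble minus J1 control was 1.22 on the brightest and -1.10 on the other. The direction of Sesn2 in J1 and between the lines is therefore not settled by these arrays.

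Stc2, a secreted glycoprotein, read 5.53 and 4.85 in J1 and 5.55, 6.49 and 5.44 in E14, 1.60-fold lower in J1 and 1.92-fold higher with shRNA3387. A further probe set of Stc2 gave -0.34, 0.48 and -0.11 and another -0.01, -0.37 and -0.90, so the shRNA3387 direction differed between them. Vldlr, a lipoprotein receptor, read 3.90 and 3.74 in J1 and 4.42, 5.13 and 3.62 in E14, a spread seen on 1 dim probe set only, since its 5 others stayed under the filter level. Herpud1, which serves the disposal of misfolded endoplasmic reticulum protein, differed by 0.24 on its brightest probe set and by -0.82 on the other in J1.

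The remaining effectors were close to their controls in J1. The eIF2 phosphatase subunit Ppp1r15a differed by 0.08 in J1 and by -0.01 and -0.29 in E14, the mTORC1 inhibitor Ddit4 by -0.05, -0.05 and -0.42, and the translation repressor Eif4ebp1 by -0.30, 0.03 and -0.19. Each was lower with shRNA2863 than with the scramble.

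**Figure D3:**
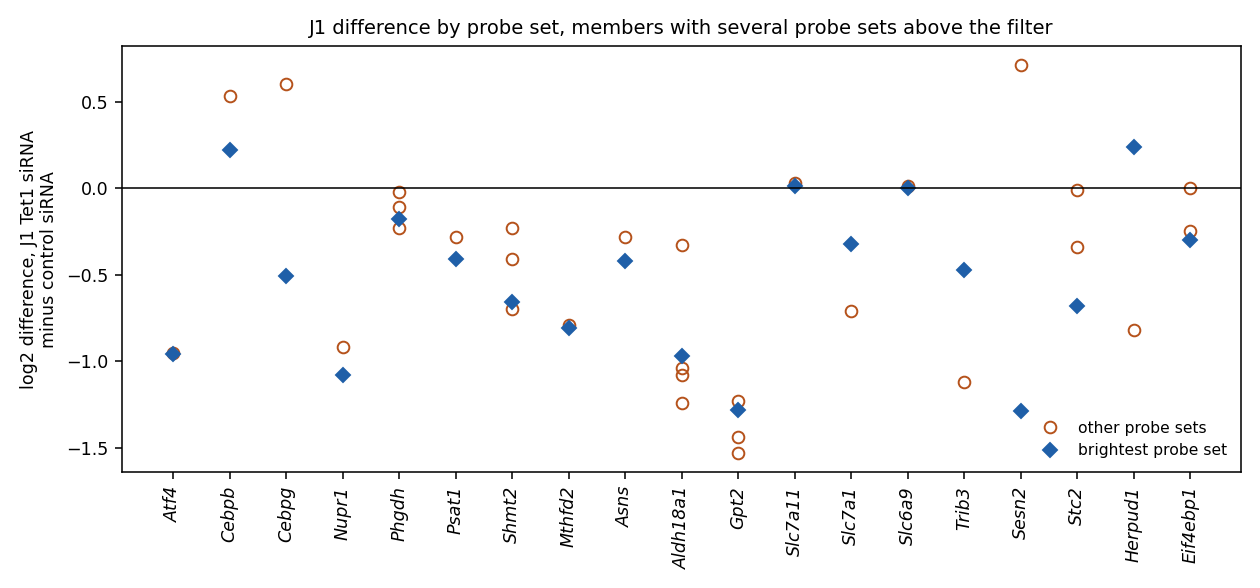
Log2 difference between J1 Tet1 siRNA and J1 control siRNA (vertical axis) for the 19 genes with more than 1 probe set above the filter level (horizontal axis), 1 array each. Blue diamonds are the brightest probe set and open circles the others; Sesn2, Cebpg and Herpud1 have points on both sides of 0, while Gpt2 and Aldh18a1 have all theirs below it.

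Over these 19 genes, 25 of 30 other probe sets had the sign of the brightest one in J1. Where the brightest differed by at least 1.5-fold, 15 of 16 did, the exception being Sesn2. The corresponding figures were 24 of 30 with shRNA3387 and 25 of 30 with shRNA2863.

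In E14 cells the 31 genes were centred near the scramble with shRNA3387 and below it with shRNA2863. With shRNA3387 the median difference was 0.06, beside -0.02 over all kept genes; 4 of 31 were at least 1.5-fold higher (Atf3, Stc2, Vldlr and Aldh18a1), against 5.39% of all genes, and 1 lower (Psat1), against 3.36%. At 2-fold 1 gene was higher (Atf3), against 1.15%, and 0 lower, against 0.653%. With shRNA2863 the median was -0.20, beside -0.01; 3 of 31 were at least 1.5-fold lower (Vldlr, Chac1 and Nupr1), against 3.26%, and 1 higher (Atf3), against 3.63%. At 2-fold 0 were lower, against 0.609%, and 0 higher, against 0.587%. On their brightest probe sets all 9 stress effectors were below the scramble with shRNA2863, as were 7502 of all 13619 genes, but only Chac1 and Vldlr of the 9 passed 1.5-fold, Sesn2 differed by -0.07, and the other probe set of Herpud1 was higher by 0.24. The shared scramble array enters both sets of differences.

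The hairpin arrays can be set against each other without the scramble array. Of the 31 genes, 25 were higher with shRNA3387 than with shRNA2863, beside 5451 of all 13619 genes. The median difference was 0.35 beside -0.01 over all kept genes. At least 1.5-fold higher were 7 (22.6%), against 3.53% of all genes, and 0 were at least 1.5-fold lower, against 2.11%. They were Vldlr (1.51), Chac1 (1.21), Nupr1 (1.17), Stc2 (1.05), Aldh18a1 (0.69), Atf3 (0.64) and Cth (0.62), the first 4 of which were at least 2-fold higher, against 0.661% of all genes, while 0 were 2-fold lower, against 0.345%. Psat1, Ddit3 and Slc7a1 had differences below 0 of at least 0.19 in size (-0.37, -0.27 and -0.19). Each hairpin is 1 array, so a difference between the hairpins and a difference between the cultures cannot be told apart. When each gene was read as the median of its probe sets, Vldlr differed by -0.02 and the count was 8.

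**Figure D4:**
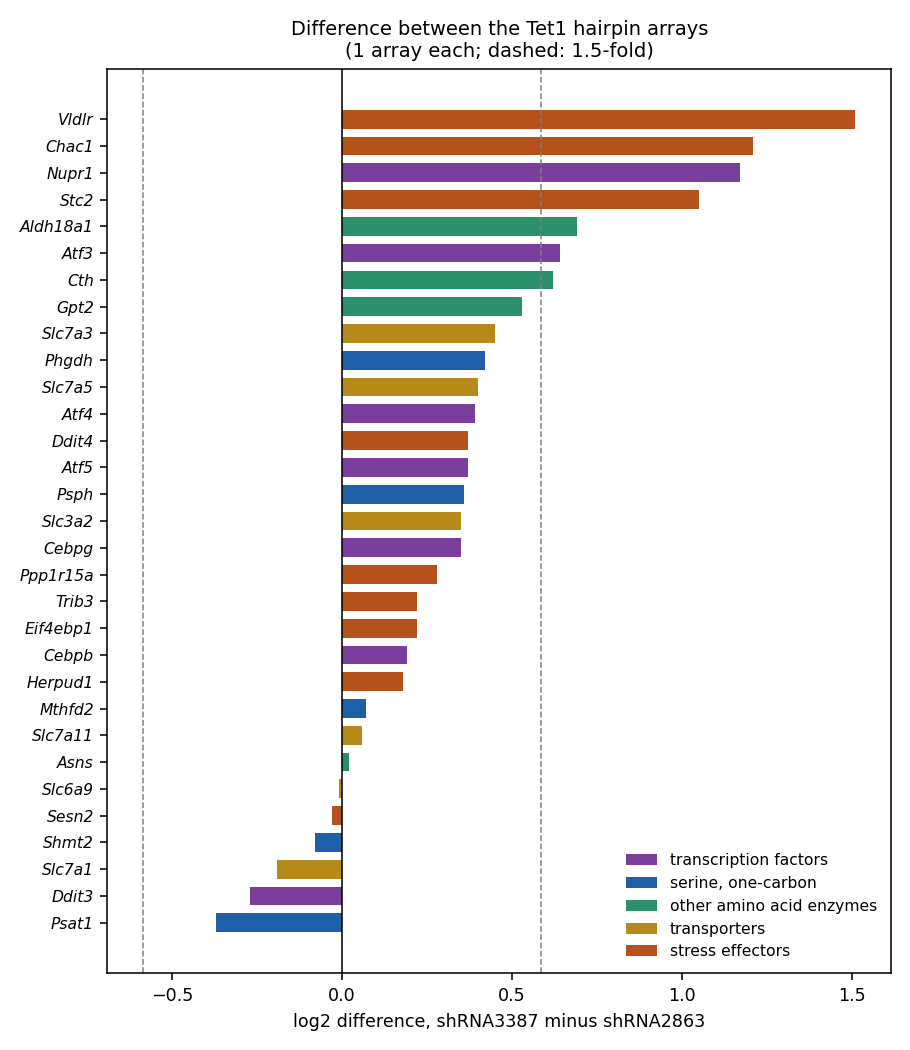
Log2 difference between E14 cells with shRNA3387 and with shRNA2863 (horizontal axis), 1 bar per gene, coloured by functional group, from 1 array per hairpin and thus without error bars. The 7 bars beyond the dashed 1.5-fold line on the right run from 0.62 for Cth to 1.51 for Vldlr, and the longest bar on the left is Psat1 at -0.37.

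No gene of the set passed a test over arrays. In the limma fit over both lines, with a term for the line and 2 residual degrees of freedom, 0 of 13619 genes had a Benjamini-Hochberg adjusted p under 0.05 (0%). At an unadjusted p under 0.05 there were 3 of the 31, all lower, beside 936 of all genes (6.87%). They were Asns (-0.49 ± 0.07 SE, limma adjusted p = 0.7), Shmt2 (-0.50 ± 0.10 SE, limma adjusted p = 0.7) and Psat1 (-0.46 ± 0.14 SE, limma adjusted p = 0.716). All 3 were lower in 3 of 3 depletions, 2 of which share the scramble array. By contrast Atf4 (-0.42 ± 0.28 SE) and Chac1 (-0.74 ± 0.56 SE) had larger errors beside their differences.

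The effect in E14 alone and its difference from that in J1 were tested with 1 residual degree of freedom, taken from the hairpin pair. In E14, limma called 0 of 13619 genes (0%) at an adjusted p under 0.05, with 1500 (11%) at an unadjusted p under 0.05. Of the 31 genes, Asns (-0.55 ± 0.05 SE, limma adjusted p = 0.343) and Shmt2 (-0.38 ± 0.08 SE, limma adjusted p = 0.417) were in that number. For the difference, the mean E14 effect minus the J1 effect, limma again called 0 (0%), with 1888 genes (13.9%) at an unadjusted p under 0.05, among them Sesn2 (1.21 ± 0.14 SE, limma adjusted p = 0.332) and Mthfd2 (0.94 ± 0.13 SE, limma adjusted p = 0.337). The other probe set of Sesn2 was higher by 0.71 in J1, opposite to the brightest. With the hairpins it was lower (-0.75 and -0.28), as was the brightest (-0.10 and -0.07). The direction of the Sesn2 difference between the lines therefore rests on the probe set chosen. The corresponding values were 0.95 ± 0.36 (SE) for Atf4 and 1.46 ± 1.09 (SE) for Chac1. A lower level in J1 that is not seen in E14 is thus not shown to differ between the lines at this number of arrays.

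The control arrays differed before any depletion, as did many genes. Between E14 scramble and J1 control, 7 of 31 genes were at least 1.5-fold lower in E14, against 13.4% of all genes, and 4 higher, against 9.69%. At 2-fold 4 were lower, against 4.84%, and 1 higher, against 3.52%. Lower in E14 were Chac1 (-2.01), Atf3 (-1.86), Trib3 (-1.14), Gpt2 (-1.07), Mthfd2 (-0.97), Cebpg (-0.95) and Nupr1 (-0.79). Higher were Sesn2 (1.22, but -1.10 on its other probe set), Shmt2 (0.73), Phgdh (0.69) and Ppp1r15a (0.62). The genes that were lower with Tet1 siRNA in J1 lay on both sides: Chac1, Gpt2, Mthfd2, Nupr1 and Atf4 were lower in E14 scramble than in J1 control cells, whereas Shmt2, Slc7a3 (0.50), Psph (0.47), Aldh18a1 (0.20), Slc7a5 (0.18) and Stc2 (0.02) were higher, as was Sesn2 on its brightest probe set. This comparison and the J1 siRNA comparison share the J1 control array.

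Other genes of the pathway were taken from lists by function. Cytosolic aminoacyl-tRNA synthetases, which charge tRNA with amino acids and are a known group of Atf4 targets, were measured for 19 of 20. In J1, 18 of 19 were below control, beside 6865 of all 13619 genes, and 8 were lower by at least 1.5-fold, beside 6.09% of all genes, with a median of -0.46. By symbol, 13 synthetases were found in the promoter table, and 5 of these hold TGATGNAA, against 4.51% of all genes there. Vars read 8.21 and 7.18 in J1 and 8.31, 8.56 and 8.26 in E14. Cars read 8.48 and 7.76 in J1 and 8.26, 7.80 and 7.65 in E14, lower on each depleted array, and Sars differed by -0.62, -0.13 and -0.64. The medians of the 19 were 0.00 with shRNA3387 and -0.15 with shRNA2863. The J1 count was 4 after cyclic loess normalization and 5 with the median over probe sets.

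Further amino acid transporters, 13 kept, had 4 genes at least 1.5-fold lower in J1 (Slc1a4, Slc6a15, Slc1a5 and Slc7a7), beside 6.09% of all genes, and a median of -0.16, which was 0.01 with the median over probe sets. Slc1a4, a carrier of alanine, serine and cysteine, differed by -1.02, 0.26 and -0.62, and Slc6a15, a carrier of branched-chain amino acids and proline, by -0.98, 0.11 and -0.41. Slc7a8 differed by -0.07, 0.58 and 0.84. Of 10 other one-carbon genes, Aldh1l2, the mitochondrial formyltetrahydrofolate dehydrogenase, was the only one at least 1.5-fold lower in J1 (-0.89, with -1.20 and -0.86 for the hairpins). Its values were dim, at 4.60 and 3.71 in J1 and 4.64, 3.44 and 3.78 in E14. The list median in J1 was -0.22. The glycine cleavage enzyme Gldc differed by -0.44, 0.39 and 0.03, and the cytosolic enzyme Aldh1l1 by -0.12, 0.50 and 0.16.

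For the arms of the stress response upstream of Atf4 and beside it, the J1 counts were near the shares of all genes (6.09% lower and 2.91% higher); their difference from the stress response and amino acid genes was not tested. Of 15 genes for eIF2, its kinases, their regulators and its exchange factor, 1 was at least 1.5-fold lower (the phosphatase subunit Ppp1r15b, -0.62) and 0 higher, with a median of -0.07. The kinase that senses amino acid lack, Eif2ak4, differed by 0.18, 0.70 and 0.14, the double-stranded RNA kinase Eif2ak2 by 0.37, -0.77 and -0.28, and the adaptor Nck1 by 0.26, 0.03 and 0.52. Of 19 endoplasmic reticulum chaperones and unfolded protein response genes, 0 passed 1.5-fold in J1 either way, with a median of 0.06. Derl3 and Sel1l, parts of the machinery that removes misfolded protein, differed by -0.46, -0.51 and -0.40 and by -0.34, -0.34 and -0.44, and the protein disulfide isomerase Pdia6 by 0.10, 0.23 and 0.44. Targets of Nrf2, the factor of oxidative stress, had J1, shRNA3387 and shRNA2863 medians of 0.21, 0.12 and 0.18 over 9 genes, with 1 gene past 1.5-fold in J1 (Hmox1, 0.62) and with Nqo1 at 0.43, 0.00 and 0.46, Srxn1 at 0.30, 0.11 and 0.39, and Txnrd1 at 0.23, 0.18 and 0.38. In the fit over both lines limma called 0 genes of these lists, with an unadjusted p under 0.05 for 4 synthetases (Cars, Gars, Lars and Tars), 2 genes of the chaperone list (Sel1l and Derl3) and 1 other one-carbon gene (Aldh1l2), all lower, and for 1 Nrf2 target (Txnrd1), higher. Of all genes 6.87% had such a p, so the counts for the chaperone, one-carbon and Nrf2 lists lie near that of genes in general.

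**Figure D5:**
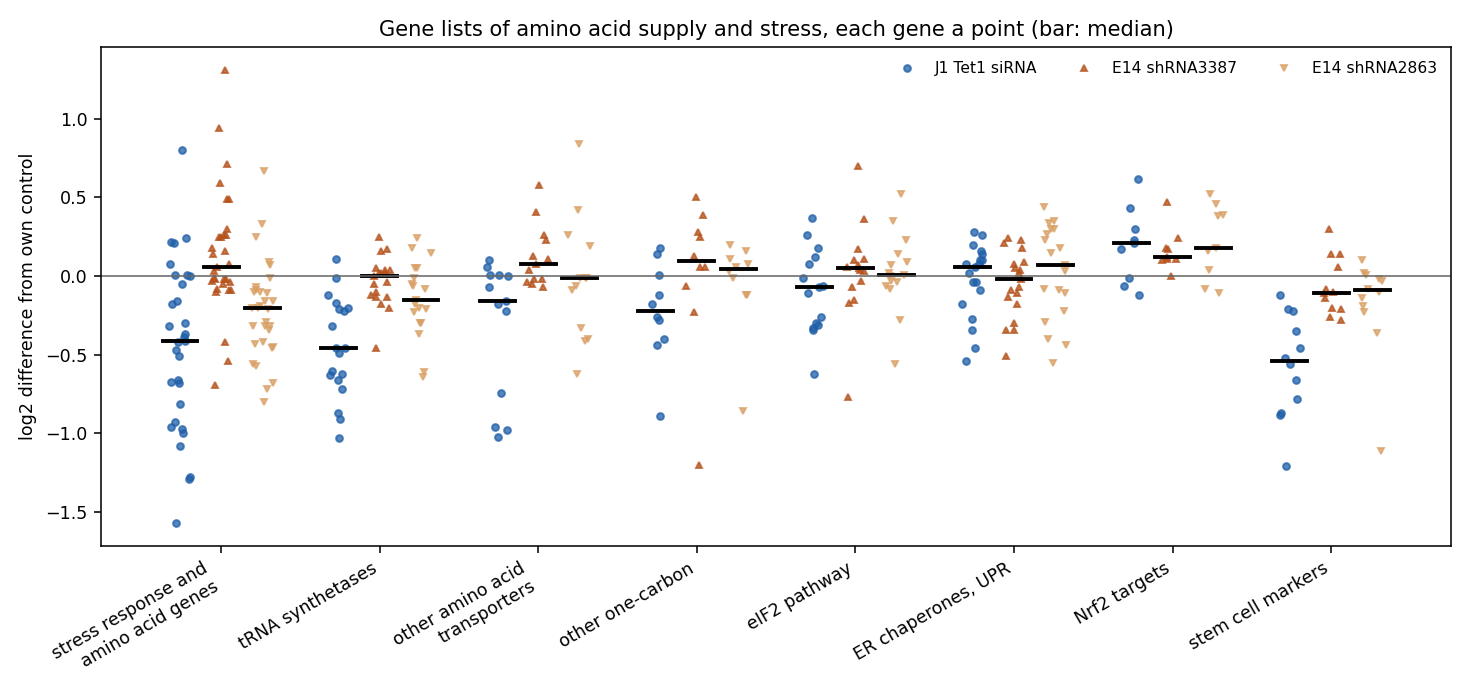
Log2 difference of each Tet1-depleted array from its own control (vertical axis) for the genes of each list (horizontal axis); each point is a gene on 1 array, blue for J1 Tet1 siRNA, dark and light orange for E14 shRNA3387 and shRNA2863, and black bars are medians over genes. The J1 medians are -0.41 for the stress response and amino acid genes, -0.46 for tRNA synthetases and -0.54 for stem cell markers, beside 0.06 for chaperones and 0.21 for Nrf2 targets.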

How the data were processed

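RNA of 5 samples was measured on Affymetrix arrays after biotin labelling, per the labels' protocols. The deposited values are log2 probe set summaries; the scale was read from their range (1.38 to 14.12), and how the authors corrected background, normalized and summarized is not given in the sources used here. Array medians ran from 3.45 to 3.52, and values were used as deposited. Of 45101 probe sets, 34945 non-control ones had 1 symbol in the platform annotation, 932 had several and 9211 none; 34741 matched RefSeq of GRCm38.p6 by Entrez identifier, with 0 symbols changed. The annotation's build is not given, and coordinates come from the RefSeq promoter table.

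A gene was kept if 1 or more arrays exceeded the 40th percentile of that array's non-control probe sets. Two-sided tests were fitted with limma 3.58.1 (R 4.3.3), with its variance prior following mean signal and Benjamini-Hochberg adjustment over 13619 genes; the code was tested on simulated data. With so few arrays the precision is low. No group has a replicate, so the spread behind the p-values comes from how the depletions differ, together with the variance prior. The standard errors are therefore not errors between replicates. Figures used matplotlib 3.10.9 in Python 3.11.15.

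The members, lists and the naming rule (all 32 genes, Tet1, and the 3 genes of each further list with the largest mean absolute difference) were chosen with earlier results of these data known. Alternatives were quantile, median and cyclic loess scaling, the median over probe sets, no filter or a 60th percentile filter, a 2-fold threshold, limma without a trend or line term, and leaving out arrays. Genes named outside that rule (Pdgfra, Pdgfrb, Dcn, Postn, Col1a2, Sparc, Twist1, Vim, Slc1a5, Slc7a7, Ppp1r15b, Hmox1, Gars, Lars, Tars, Eprs) were picked after their values were seen.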

Additional observations from a re-analysis of the deposited data

Results flagged for a closer look

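Among the stress response and amino acid genes and the 3 genes named from each further list, 5 differed one way on the J1 array and the other way on both E14 hairpin arrays, each by more than 0.05. Genes of the lists that were not named, such as Eprs (-0.63, 0.16 and 0.18), showed this too. Mthfd2 differed by -0.81 in J1 and by 0.16 and 0.09 with shRNA3387 and shRNA2863; its difference between the lines was 0.94 ± 0.13 (SE, limma adjusted p = 0.337). The other probe set of Mthfd2 gave -0.79, 0.29 and -0.35, so shRNA2863 had the sign of J1 there. Slc7a1 differed by -0.32, 0.14 and 0.33 (difference 0.56 ± 0.21 SE, limma adjusted p = 0.428). Its other probe set above the filter gave -0.71, -0.06 and 0.11, so shRNA3387 had the sign of J1 there. Eif2ak2 differed by 0.37, -0.77 and -0.28 (-0.90 ± 0.45 SE, limma adjusted p = 0.505), Aldh1l1 by -0.12, 0.50 and 0.16 (0.45 ± 0.32 SE, limma adjusted p = 0.625) and Slc7a8 by -0.07, 0.58 and 0.84 (0.78 ± 0.24 SE, limma adjusted p = 0.39). None of these differences passed the test, and both hairpins share the scramble array.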

How the results depend on the processing

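The J1 count of 12 lower genes was 11 to 12 and its median -0.33 to -0.45 under the 3 scalings, the probe set median and both filters. At 2-fold in place of 1.5-fold the lower and higher counts were 5 and 0 in J1, 0 and 1 with shRNA3387, 0 and 0 with shRNA2863, and 4 and 1 between the controls; 4 genes were higher with shRNA3387 than with shRNA2863, and 0 were higher in the E14 mean, against 1. Cyclic loess gave 5 lower genes with shRNA2863, against 3. With the median over probe sets, shRNA3387 gave 2 lower and 2 higher, the E14 mean 1 lower, against 0, and the controls 2 higher, against 4. Quantile normalization moved the median between controls from -0.16 to -0.06. For the E14 mean, leaving out a hairpin gave 1 to 3 lower and 1 to 4 higher genes and a median from -0.20 to 0.06. With the median over probe sets, signs turned for Vldlr (shRNA3387 difference -0.04, hairpin difference -0.02), Nck1 between controls (0.03), the eIF2 list between controls (0.03), the other transporters in J1 (0.01) and the other one-carbon genes in the E14 mean (-0.028). The cause of these shifts was not tested. Limma called 0 genes at an adjusted p under 0.05 in each alternative run, including each array left out of the fit over both lines; 936 had an unadjusted p under 0.05 in that fit. No paired analysis was possible because the labels give no replicate numbers and each group holds 1 array. Dim probe sets near the filter level, such as those of Slc7a11, Vldlr, Aldh1l2 and Slc7a8, and that of Atf3 on the scramble array, limit what could be seen.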
